A study of Homo sapiens with 6 samples.

Results

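The machinery of cell division was followed in human leukaemia cells through 60 genes for mitotic kinases and cyclins, anaphase proteolysis, kinetochores, condensin, kinesins, the spindle and cytokinesis. The genes were chosen by name with earlier results of these data known, and every probe set of the array annotated to such a gene was taken. Of the 60 genes, 59 had a probe set of their own, 162 in all, among 18239 genes and 49293 probe sets tested. PTTG1, which encodes securin, was represented only by probe sets shared with its relatives PTTG2 and PTTG3P and is given apart.

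The cells were MV4;11, an established human acute leukaemia line in which the MLL gene (KMT2A) is rearranged. The treated group received 4 µM MI-389, a small molecule that the series describes as blocking menin from binding MLL, and the other received its solvent DMSO. All cultures contained 0.25% DMSO and were harvested after 6 days, and on day 3 they had been returned to the starting density of viable cells in fresh medium with the agent renewed. Each group held 3 arrays, hybridised with RNA amplified and labelled from its 3-prime end, and all 6 came from this single line at a single dose and time. The labels call the arrays biological replicates without saying how cultures were kept apart, so p-values here speak only to the spread of these arrays, part of which may be technical.

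In mitosis, cyclin B and CDK1 drive entry, kinesins and other microtubule proteins build the spindle, and kinetochores tie each chromosome to it. The spindle checkpoint then restrains the anaphase-promoting complex and its activator CDC20 until all chromosomes are attached, after which securin and cyclin B are destroyed, separase cuts cohesin and the cell divides. The transcripts of many of these proteins accumulate together in G2 and mitosis. Their promoters often carry a cell cycle genes homology region (CHR), bound by the MuvB core of the DREAM complex with p130 or p107 in resting cells and by MuvB with MYBL2 and later FOXM1 in dividing ones, and CCAAT boxes, bound by NF-Y.

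All levels below are the deposited log2 values and differences are MI-389 minus DMSO on that scale, so a difference of 1 is a doubling. A gene is said to rise or fall where limma's adjusted p over all 18239 genes was under 0.05. Each gene was read from its brightest own probe set. As alternatives its probe sets were averaged, or those with suffixes _x_at, _s_at and _a_at were used only where no other existed. These are called unspecific suffixes for short, although _a_at marks probe sets that match several transcripts of 1 gene. Taking them last often replaces a bright probe set by a dim one and is no check of specificity. Array medians lay between 4.47 and 4.49. Nonspecific control probe sets reached 5.49 on single arrays when the probe set of highest GC content was left out, and a mean below 5.49 is called dim here. The 9 hybridisation spike-in probe sets, which report RNA added in equal amount to every array, were higher on the MI-389 arrays by 0.25 (SE 0.043, 3 against 3 arrays). Subtracting each array's spike-in mean therefore lowers every difference by 0.25 and moves the median of all genes from 0.018 to -0.23, and results that change with it are given on both scales. The excess of 3-prime over 5-prime signal of the control transcript ACTB was 1.39, 1.23 and 1.28 with DMSO and 1.54, 1.48 and 1.91 with MI-389, and that of GAPDH averaged -0.11 with DMSO and 0.037 with MI-389. The part of these controls in the results below was not tested. In a bulk culture, more RNA per cell and more cells of a kind cannot be told apart.

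The line's identity was checked with marker lists. Of 7 measured myeloid markers 5 rose. LYZ, which encodes lysozyme, rose from 11.07 to 13.13. ITGAM rose by at least 4.68-fold, from a dim 4.93 to 7.71, and CD86 by at least 3.06-fold, from a dim 5.41 to 7.10. FLT3, a receptor of immature myeloid cells, fell from 11.01 to 9.59. SPI1, which encodes a myeloid transcription factor, passed at -0.66 while dim in both groups, at 4.66 and 3.99. The 6 T cell, 5 erythroid and 6 fibroblast markers had means from 3.03 to 5.15, all dim, as were 4 of 5 B cell markers, with PAX5 at 6.66 and 6.75, and 5 of 6 epithelial markers. CLDN4 was the epithelial exception, at 6.47 and 6.76, and KRT18, dim in its mean, read 6.05 with DMSO and 4.79 with MI-389.

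MI-389 was followed by higher transcript levels across the mitotic machinery. Of the 59 genes, 46 rose, 1 fell and 12 did not pass the test, where 18.4% of all genes rose and 15.7% fell. After centring on the spike-ins, 25 rose and 8 fell, against 1397 (7.66%) and 11056 (60.6%) of all genes, and none of the 46 turned into a fall. The median difference was 0.39, with quartiles at 0.20 and 0.61, against a median of 0.018 over all genes, whose quartiles lay at -0.10 and 0.14. The shifts were small next to the largest in the data: 17 of the 59 rose at least 1.5-fold, as did 5.31% of all genes, none of the 59 fell by as much (4.74% of all genes), and KIF20A alone reached 2-fold. The SD between arrays of a group was 0.064 at the median of the genes and 0.22 at most.

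The groups did not overlap for most of the genes. All 3 MI-389 arrays lay above all 3 DMSO arrays for 50 of the 59 genes (24.9% of all genes) and below them for 2 (20.5% of all genes). AURKA, BUB3, CENPN, INCENP, NCAPG, NDC80 and SMC4 overlapped, and HMMR, KIF2C, KIF4A, MKI67 and PRC1 were apart without passing the test. Relative to its own mean, the median gene stood at -0.17, -0.21 and -0.21 on the DMSO arrays and at 0.23, 0.20 and 0.19 on the MI-389 arrays. The 3 arrays of each group thus carried the shift alike, and leaving out any array in turn gave 40 to 45 genes that rose. Of the 59 genes, 58 had a mean above 5.49. Among all 8668 genes of at least that mean, 30.4% rose and 27.4% fell.

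**Figure D1:**
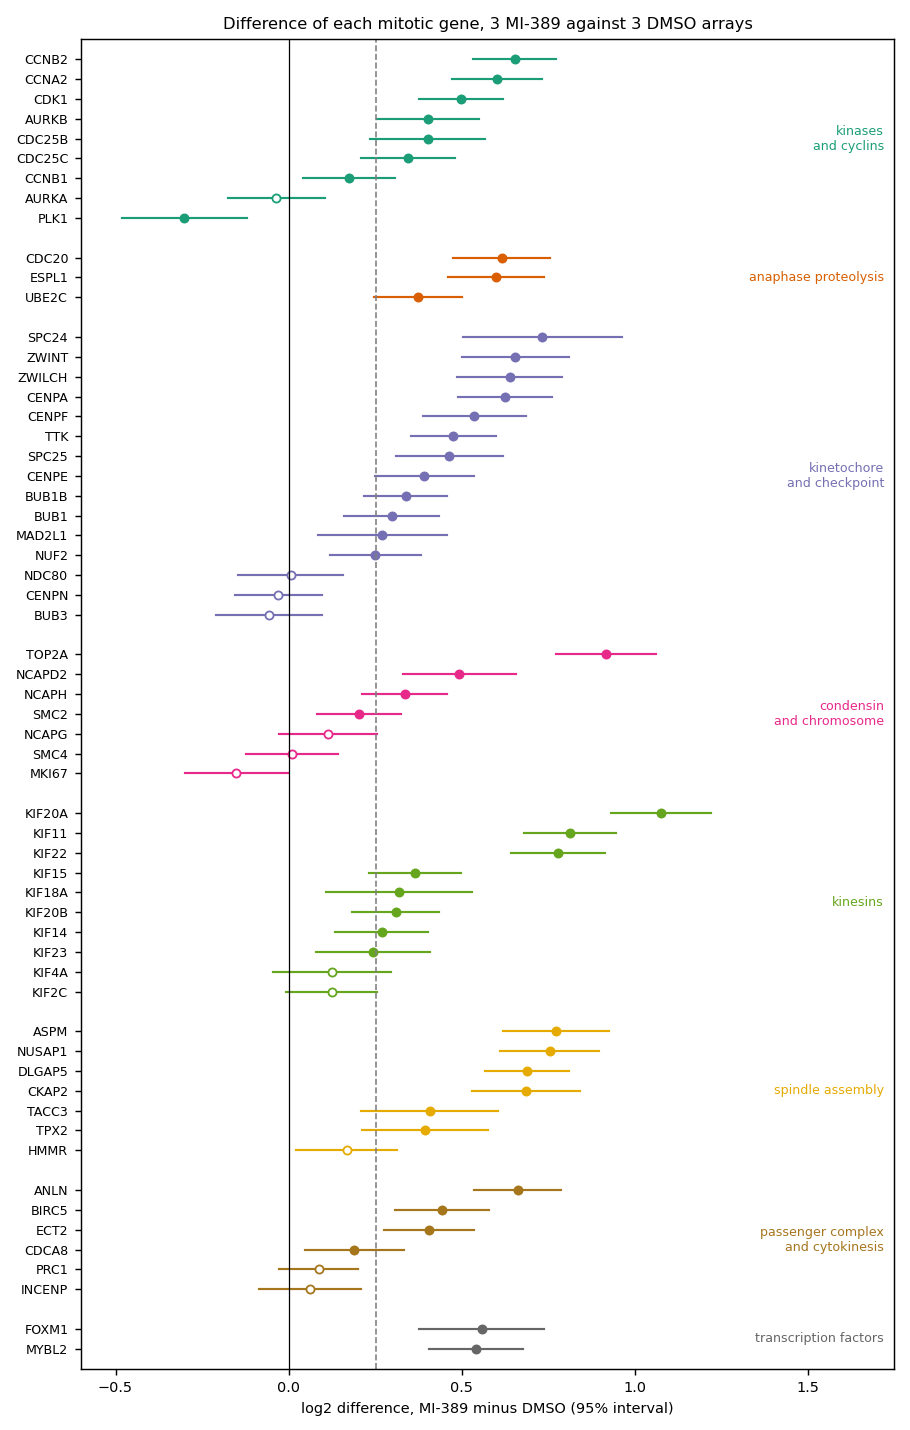
Difference in log2 level, MI-389 minus DMSO (x axis), for 59 mitotic genes (y axis) ordered within 8 classes, with 95% intervals from limma (3 arrays per group); filled points passed an adjusted p of 0.05 over all genes. Of the 59 genes 46 lie to the right of 0 and passed, with KIF20A at 1.08 and PLK1 at -0.30 at the ends. The dashed line is the spike-in difference of 0.25. After centring on the spike-ins 25 rose and 8 fell, against 7.66% and 60.6% of all genes.

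The promoters of the mitotic genes carried the sequence features of cell cycle genes at a high rate. RefSeq promoter entries for GRCh38.p14 matched 53 of the 60 names, and those of AURKA, BIRC5, BUB3, FOXM1, TPX2, TTK and UBE2C were not used here. The window covered 250 bases before and 50 bases from the annotated start, 300 in all, and was searched on both strands for the CHR, as TTTGAA or TTCGAA, the second of which is its own reverse complement, and for the CCAAT box, as CCAAT or ATTGG. The 53 genes had 67 windows, and a gene was counted where any of its windows matched. Shares of all promoters are per single window, so they are not like the shares of genes. A CHR was found for 40 of the 53 genes (75.5%), against 17.7% of 14492 tested genes and 16.4% of all 35116 promoters. CCAAT boxes were also found for 40 of the 53 (75.5%), against 42.4% of tested genes and 34.6% of all promoters, and at least 2 of them for 24 (45.3%), against 15.0% and 10.8%. The combination of CHR and CCAAT was present for 32 (60.4%), against 7.42% of tested genes and 6.38% of all promoters. A match is a description of letters in a window, not a bound site. Where a gene had several windows, the first listed is printed. The 100 bases before the start are printed for 7 genes that span the range of differences, 5 that rose, PLK1, which fell, and MKI67, whose probe sets disagreed, with CHR and CCAAT letters in capitals, 5-prime to 3-prime on the gene's strand.
CCNB2 promoter, chr15:59105046-59105145, plus strand: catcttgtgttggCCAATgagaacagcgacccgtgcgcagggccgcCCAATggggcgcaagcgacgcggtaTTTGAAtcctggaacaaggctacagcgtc
CDC20 promoter, chr1:43358881-43358980, plus strand: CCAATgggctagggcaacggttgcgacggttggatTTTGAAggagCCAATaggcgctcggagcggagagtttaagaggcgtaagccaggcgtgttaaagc
CENPA promoter, chr2:26785956-26786055, plus strand: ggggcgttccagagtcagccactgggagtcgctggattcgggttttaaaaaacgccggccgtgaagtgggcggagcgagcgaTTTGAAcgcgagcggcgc
KIF22 promoter, chr16:29790651-29790750, plus strand: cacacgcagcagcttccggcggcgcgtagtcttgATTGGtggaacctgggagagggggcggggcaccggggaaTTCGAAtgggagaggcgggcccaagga
KIF20A promoter, chr5:138179012-138179111, plus strand: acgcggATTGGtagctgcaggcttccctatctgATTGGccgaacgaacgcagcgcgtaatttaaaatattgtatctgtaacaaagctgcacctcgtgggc
PLK1 promoter, chr16:23678789-23678888, plus strand: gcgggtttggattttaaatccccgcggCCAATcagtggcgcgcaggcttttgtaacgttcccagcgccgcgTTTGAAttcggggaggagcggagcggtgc
MKI67 promoter, chr10:128126424-128126523, minus strand: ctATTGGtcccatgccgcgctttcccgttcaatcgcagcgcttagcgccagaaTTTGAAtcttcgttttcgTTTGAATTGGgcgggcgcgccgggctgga

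In these bases CCNB2 had a CHR downstream of 2 CCAAT boxes and CDC20 had a CHR between 2 of them. The order of these letters was not counted over the 53 genes. CENPA had a CHR and no CCAAT box in these bases, KIF22 had the TTCGAA form, and KIF20A, the gene with the largest rise, had 2 CCAAT boxes, read as ATTGG, and no CHR. The PLK1 promoter had its CHR 29 bases and a CCAAT box 73 bases before the start, and that of MKI67 held 2 CHRs, 1 of which overlaps an ATTGG in the run TTTGAATTGG. Matches lay near the start. A CHR began within the 50 bases before it for 24 of the 53 genes (45.3%), against 3.03% of tested genes, and a CCAAT box began between 75 and 51 bases before it for 49.1%, against 12.4%. The differences of genes with and without these letters overlapped. Of the 40 genes with a CHR, 30 rose and 1 fell with a median difference of 0.34, and of 12 measured genes without it 11 rose with a median of 0.47. With at least 2 CCAAT boxes, 20 of 23 rose (median 0.50), and with fewer, 21 of 29 (median 0.34), which is given without a test.

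**Figure D2:**
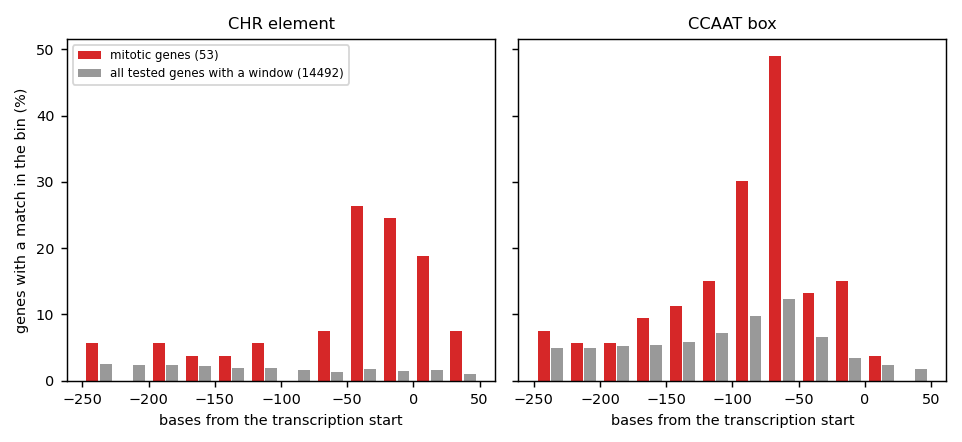
Share of genes in percent (y axis) with a motif start in each 25-base bin, by distance from the annotated start in bases (x axis), for CHR letters on the left and CCAAT letters on the right, in 53 mitotic genes and 14492 tested genes with a RefSeq promoter. In the mitotic genes CHR starts peak at 26.4% in the bin from 50 to 26 bases before the start, and CCAAT starts at 49.1% in the bin from 75 to 51 bases before it, against 12.4% of tested genes.

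Among the 9 kinases, phosphatases and cyclins of mitotic entry, 7 rose and 1 fell with a median difference of 0.40. After centring on the spike-ins 3 rose and 2 fell. On that scale 7.66% of all genes rose and 60.6% fell, and the spike-in counts of each class below stand beside these shares. CCNB2, which encodes cyclin B2, read 9.001, 9.007 and 9.011 with DMSO and 9.61, 9.71 and 9.65 with MI-389, a difference of 0.65 (SE 0.054, adjusted p = 6.89e-06). The DMSO arrays lay close together and every MI-389 array was higher. CCNA2, cyclin A2 of S phase and G2, went from 9.36, 9.38 and 9.27 to 9.98, 9.88 and 9.95, a difference of 0.60 (SE 0.058, adjusted p = 2.12e-05). CDK1, the kinase these cyclins activate, went from 10.11, 10.19 and 10.10 to 10.66, 10.60 and 10.63, a difference of 0.50. All 3 genes kept their rise after spike-in centring, CDK1 at 0.25 (adjusted p = 0.010). As the mean of its probe sets CDK1 rose by 0.28, and with unspecific suffixes last it was read from a dim probe set and did not pass, at 0.057. AURKB, the kinase of the chromosomal passenger complex, rose by 0.40 from 8.67, 8.81 and 8.81 to 9.22, 9.07 and 9.20. The phosphatases that activate CDK1 also rose, CDC25B by 0.40 (0.19 as the mean of its probe sets) and CDC25C by 0.35. None of these 3 passed the test after spike-in centring, where the values were 0.15 for AURKB, 0.15 for CDC25B and 0.093 for CDC25C.

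CCNB1, AURKA and PLK1 stood below these. CCNB1, which encodes cyclin B1, read 8.92, 8.97 and 8.91 with DMSO and 9.07, 9.05 and 9.19 with MI-389. Its difference of 0.17 (SE 0.059) passed narrowly, with an adjusted p of 0.0459, and turned to -0.078 after spike-in centring. It also missed the threshold without any DMSO array or MI-389 replicate 1 or 3, with differences from 0.13 without MI-389 replicate 3 to 0.19 without DMSO replicate 2. AURKA, the kinase of the spindle poles, read 9.29, 9.29 and 9.31 against 9.36, 9.26 and 9.16, with overlapping groups and a difference of -0.035 (95% interval -0.18 to 0.11). PLK1, a kinase acting from mitotic entry to cytokinesis, fell from 6.64, 6.88 and 6.78 to 6.51, 6.55 and 6.33, a difference of -0.30 (SE 0.080, adjusted p = 0.0149). Its groups did not overlap, but without DMSO replicate 2 the difference was -0.24 with an adjusted p of 0.0689. After spike-in centring PLK1 stood at -0.55.

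The 3 genes of anaphase proteolysis all rose, with a median of 0.60, and 2 did so after spike-in centring. The median was 0.35 when each gene was the mean of its probe sets and 0.37 when probe sets of unspecific suffixes were taken last. CDC20, the activator of the anaphase-promoting complex that the checkpoint holds back, went from 8.997, 9.067 and 8.938 to 9.69, 9.62 and 9.54, a difference of 0.62 (SE 0.063, adjusted p = 3.22e-05). ESPL1, which encodes separase, went from 6.935, 7.053 and 6.999 to 7.64, 7.51 and 7.64, a difference of 0.60. In both genes the lowest MI-389 array stood well above the highest DMSO array. The size depended on the probe set: as means of all probe sets CDC20 rose by 0.35 and ESPL1 by 0.26, and with unspecific suffixes last CDC20, read from a dim probe set, stood at 0.15 (adjusted p = 0.417). UBE2C, the ubiquitin-conjugating enzyme that primes substrates of the complex, rose by 0.37 from 10.75, 10.80 and 10.79 to 11.21, 11.08 and 11.17, and did not pass at 0.12 after spike-in centring. PTTG1, the substrate securin, can be read only through shared probe sets, of which the brighter went from 9.61, 9.60 and 9.72 to 10.04, 10.07 and 10.00, a difference of 0.39. The adjusted p over all probe sets was 6.66e-04, and the signal cannot be divided between PTTG1 and its relatives.

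Kinetochore and checkpoint genes rose in 12 of 15 cases with a median of 0.39, and after spike-in centring 7 rose and 3 fell. SPC24, a subunit of the NDC80 complex that grips microtubules, went from 6.96, 6.79 and 6.79 to 7.37, 7.55 and 7.81, a difference of 0.73 (SE 0.10, adjusted p = 2.86e-04). Its MI-389 arrays spread widely (SD 0.22), and the size rested on 1 of 5 probe sets. The other 4 were dim and differed by 0.058 to 0.31, and the mean of all 5 rose by 0.29. ZWINT, which links the RZZ complex to the kinetochore, rose by 0.66 from 10.29, 10.23 and 10.25 to 10.89, 10.80 and 11.04, and ZWILCH, an RZZ subunit, rose by 0.64. CENPA, the histone variant that marks centromeres, went from 9.15, 9.19 and 9.21 to 9.80, 9.73 and 9.90, a difference of 0.63 (SE 0.060). CENPF, a large protein of the outer kinetochore, rose by 0.54 and the motor CENPE by 0.39. The groups of all these genes were apart.

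The checkpoint genes and the other subunits of the NDC80 complex follow. TTK, the kinase that starts checkpoint signalling, rose by 0.48, BUB1B by 0.34, BUB1 by 0.30 and MAD2L1, whose protein is part of the inhibitor of CDC20, by 0.27. Of these only TTK stayed past the threshold after spike-in centring, at 0.22. MAD2L1 missed the threshold when any DMSO array was left out, with 0.26 to 0.29 and adjusted p from 0.0563 to 0.0886, and stood at -0.10 on a dim probe set with unspecific suffixes last. BUB3, their binding partner, read 10.81, 10.69 and 10.72 against 10.55, 10.73 and 10.76 and overlapped. As the mean of its probe sets BUB3 fell by 0.27 (adjusted p = 0.00106). Within the NDC80 complex SPC25 rose by 0.46 and NUF2 by 0.25, while NDC80 itself read 8.16, 8.13 and 7.96 against 8.03, 8.09 and 8.14, a difference of 0.0059 (95% interval -0.15 to 0.16). CENPN, which recognises CENPA nucleosomes, overlapped at -0.029, and as the mean of its probe sets fell by 0.15 (adjusted p = 0.0314). After spike-in centring NUF2 stood at -0.0015 and NDC80 at -0.25.

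Condensin and chromosome genes divided, with 4 of 7 rising, 3 not passing and a median of 0.20. After spike-in centring 2 rose and 2 fell with a median of -0.049, where 7.66% of all genes rose and 60.6% fell. With the mean of all probe sets the class median was 0.37. TOP2A, the topoisomerase that untangles sister chromatids, went from 10.36, 10.27 and 10.21 to 11.12, 11.22 and 11.26, a difference of 0.92 (SE 0.064, adjusted p = 2.08e-06). It stood at 0.66 after spike-in centring and rose by 0.73 as the mean of its 3 probe sets. Of the condensin subunits NCAPD2 rose by 0.49, NCAPH by 0.34 and SMC2 by 0.20, and SMC2 turned to -0.049 on the spike-in scale. NCAPH rested on its brightest probe set, with 0.10 (adjusted p = 0.125) as the mean of all 3 and -0.0037 from a dim one with unspecific suffixes last. Without DMSO replicate 2, SMC2 stood at 0.20 with an adjusted p of 0.0562. NCAPG differed by 0.11 and overlapped, and rose by 0.26 as the mean of its probe sets. SMC4, the partner of SMC2, read 11.07, 11.07 and 11.01 against 10.99, 11.04 and 11.15, a difference of 0.0095. Its groups overlapped, the 95% interval ran from -0.12 to 0.14, and the gene stood at -0.24 after spike-in centring. MKI67, the proliferation marker Ki-67 that coats mitotic chromosomes, is described with its probe sets below.

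The kinesins rose in 8 of 10 cases with a median of 0.31, and in 3 cases, with none falling, after spike-in centring. KIF20A, a motor of the central spindle, went from 6.75, 6.77 and 6.68 to 7.82, 7.90 and 7.71, a difference of 1.08 (SE 0.064), or 2.11-fold, with an adjusted p of 6.56e-07. Every MI-389 array was well above every DMSO array. KIF11, the motor that separates spindle poles, went from 8.88, 8.74 and 8.83 to 9.63, 9.59 and 9.68, a difference of 0.81. KIF22, a chromosome arm motor, went from 6.999, 6.927 and 7.048 to 7.82, 7.79 and 7.69, a difference of 0.78. KIF20A, KIF11 and KIF22 were the 3 kinesins that kept their rise on the spike-in scale. KIF22 did so on its brightest probe set, the only 1 of its 3 that rose, and as the mean of all 3 it rose by 0.26 as deposited. KIF15, which supports KIF11, rose by 0.37, KIF18A, which damps chromosome movements, by 0.32, KIF20B by 0.31, KIF14 by 0.27 and KIF23, a subunit of the centralspindlin complex, by 0.24. KIF18A missed the threshold without DMSO replicate 2 or 3 or MI-389 replicate 3 (0.24 to 0.29), as did KIF23 (0.17 to 0.25), which stood at -0.0095 after spike-in centring. KIF4A, at 0.13, and KIF2C, the microtubule depolymerase at centromeres, at 0.12, did not pass.

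Spindle assembly genes had the highest class median, 0.69, with 6 of 7 rising and 4 of 7 after spike-in centring. ASPM, a protein of spindle poles, went from 8.26, 8.32 and 8.17 to 8.91, 9.10 and 9.07, a difference of 0.77 (SE 0.069, adjusted p = 1.25e-05). NUSAP1, which bundles microtubules near chromosomes, went from 9.64, 9.63 and 9.53 to 10.32, 10.29 and 10.46, a difference of 0.75. DLGAP5, which stabilises fibres at kinetochores, rose by 0.69 with DMSO arrays of 8.51, 8.50 and 8.46 and MI-389 arrays of 9.16, 9.23 and 9.15. These 3 genes and CKAP2, which also rose by 0.69, passed on the spike-in scale. TACC3, a partner of clathrin and CKAP5 on spindle fibres, rose by 0.41 and TPX2, the activator of AURKA, by 0.39. TACC3 rose by 0.21 as the mean of its probe sets and did not pass, at 0.12, with unspecific suffixes last. HMMR, at 0.17 with an adjusted p of 0.078, did not pass.

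Of 6 genes of the passenger complex and cytokinesis, 4 rose, with a median of 0.30, and 2 rose and 1 fell after spike-in centring. ANLN, which encodes anillin of the contractile ring, went from 8.76, 8.69 and 8.65 to 9.34, 9.35 and 9.39, a difference of 0.66 (SE 0.056, adjusted p = 8.15e-06). BIRC5, which encodes survivin, rose by 0.44 from 8.39, 8.37 and 8.43 to 8.91, 8.86 and 8.74, and ECT2, the exchange factor that activates RHOA at the cleavage site, by 0.41. ANLN and BIRC5 passed on the spike-in scale too, and BIRC5 rose by 0.23 as the mean of its 12 probe sets. CDCA8, which encodes borealin, differed by 0.19 with an adjusted p of 0.0429, and stood at -0.062 after spike-in centring. It missed the threshold without each array except MI-389 replicate 3, at 0.14 to 0.20. PRC1, the bundler of the central spindle, differed by 0.087 without passing. INCENP, the scaffold of the passenger complex, was dim in both groups, at 4.66 and 4.73, with a dimmer second probe set that rose by 0.73.

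Both transcription factors of the set rose, on the spike-in scale too. FOXM1, which activates genes of G2 and mitosis, went from 6.33, 6.09 and 6.20 to 6.66, 6.89 and 6.74, a difference of 0.56 (SE 0.080, adjusted p = 3.53e-04). MYBL2, or B-MYB, went from 6.42, 6.30 and 6.34 to 6.93, 6.93 and 6.82, a difference of 0.54 (SE 0.061). The arrays of the groups were apart for both genes. As the mean of its 3 probe sets FOXM1 rose by 0.25.

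**Figure D3:**
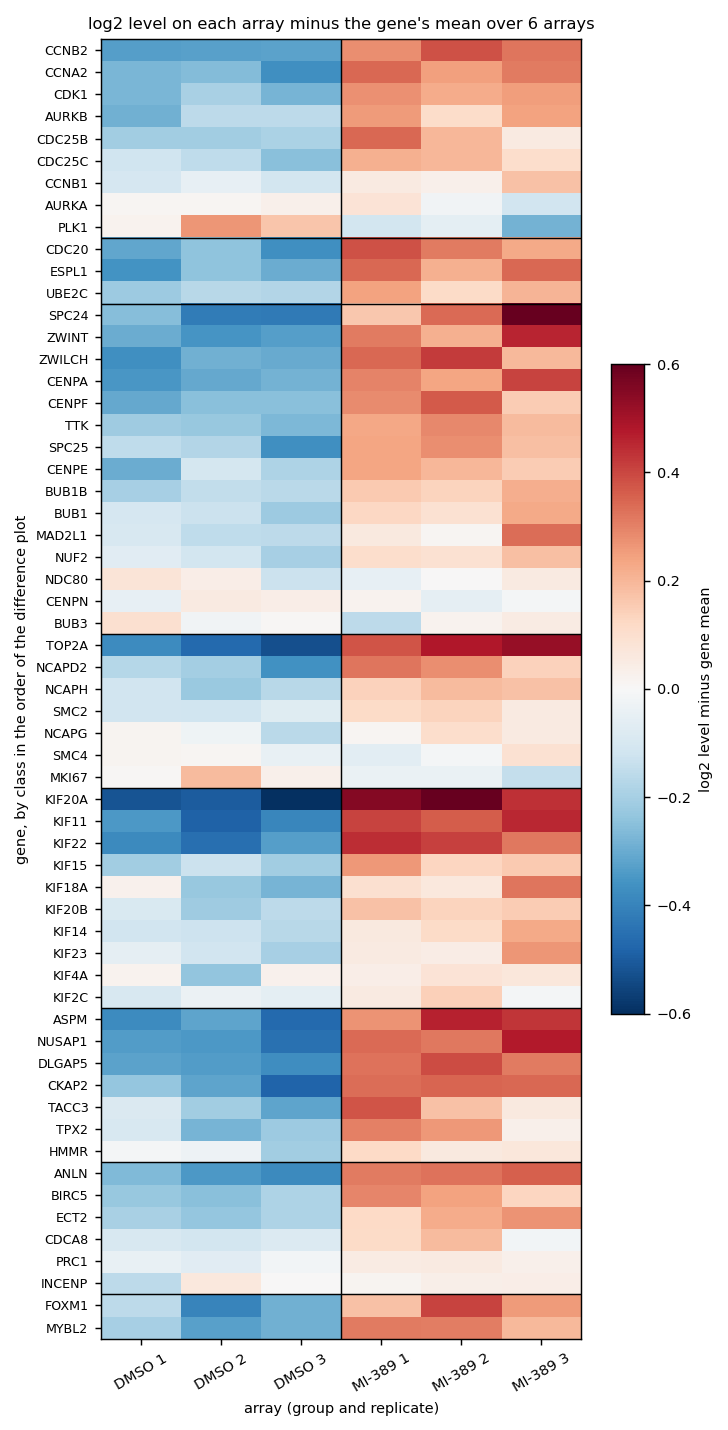
Heat map of the log2 level on each of the 6 arrays (x axis) minus the gene's mean over all arrays, for the 59 mitotic genes (y axis) in class blocks, from blue (lower) to red (higher), with the strongest colours saturated. Most genes turn from blue on the DMSO arrays to red on the MI-389 arrays, with array medians of -0.17, -0.21 and -0.21 against 0.23, 0.20 and 0.19 as deposited, a gap that narrows by 0.25 after centring on the spike-ins; PLK1 and, on its brightest probe set, MKI67 run the other way, and the arrays of AURKA, BUB3, CENPN, INCENP, NCAPG, NDC80 and SMC4 overlap.

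Partners and relatives shifted by unequal amounts. Centring on the spike-ins or on a common median cannot alter the difference of a pair of genes on the same array. Such centring moves all values of an array by 1 constant. Further quantile normalisation can alter it, and the pairs were not computed after that step. The pairs were chosen after the values were seen and are given without a test. CCNB2 exceeded CCNB1 by 0.084, 0.041 and 0.10 with DMSO and by 0.54, 0.66 and 0.46 with MI-389, so that the difference widened by 0.48. AURKB relative to AURKA moved from -0.61, -0.48 and -0.50 to -0.14, -0.18 and 0.042, a shift of 0.44. SPC24 relative to NDC80 moved by 0.73, SPC25 by 0.46 and NUF2 by 0.25, so these 3 subunits all gained on NDC80. KIF20A gained 0.77 on its relative KIF20B. Within condensin, NCAPD2 gained 0.38 on NCAPG, whereas the arrays of SMC2 relative to SMC4 overlapped with a shift of 0.19. Levels of different probe sets depend on their own affinities, so only the shift between groups is read here. The shifts are those of the brightest probe sets and depend on that choice. As means of all probe sets SPC24 stood at 0.29, NCAPD2 at 0.49, NCAPG at 0.26, SMC2 at 0.37 and SMC4 at -0.11. The widest of the 10 pairs was KIF20A against PLK1, which went from 0.12, -0.11 and -0.10 to 1.32, 1.34 and 1.38.

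Probe sets of the same gene differed in size more often than in the direction of their calls. Of the 162 probe sets, 100 rose, 7 fell and 55 did not pass, against 14.0% rising and 14.0% falling among all probe sets. Calls on the spike-in scale were made per gene only. Of 42 genes with several probe sets, 16 had all of them passing in 1 direction, 22 had some passing in 1 direction and none in the other, 4 had none passing, and none had probe sets passing both ways. The differences had 1 sign on all probe sets in 30 of the 42 genes and both signs in 12. Among the 38 dim probe sets 12 rose, and among the 124 brighter ones 88 did. TOP2A rose on all 3 of its probe sets, by 0.59 to 0.92, and UBE2C on all 4, by 0.34 to 0.46. BIRC5, with 12 probe sets, rose on 6 and passed on none of the other 6.

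MKI67 was the gene whose reading depended most on the probe set. Its brightest probe set, which represents it in the counts above, read 8.82, 9.01 and 8.85 with DMSO and 8.78, 8.78 and 8.67 with MI-389, a difference of -0.15 that did not pass (adjusted p = 0.115). The other 5 probe sets all rose, by 1.04 to 1.41. The next brightest went from 7.86, 7.90 and 8.01 to 8.985, 9.001 and 8.944, a difference of 1.05. Averaging all 6 gave 0.94 (adjusted p = 4.62e-07). Where these probe sets lie on the transcript was not analysed here. Smaller conflicts concerned BUB3, where 2 other probe sets fell, by 0.53 and 0.22, and CENPN, where 2 fell, by 0.27 and 0.47. SMC4 had 1 of 4 probe sets that fell, by 0.31, while SMC2 rose on 6 of 7 and by 0.95 on 1 of them. KIF22 rose on its brightest probe set alone, the other 2 differed by -0.0084 and 0.011, and the mean of all 3 rose by 0.26. PLK1 fell on 2 of 3, by 0.30 and 0.33.

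**Figure D4:**
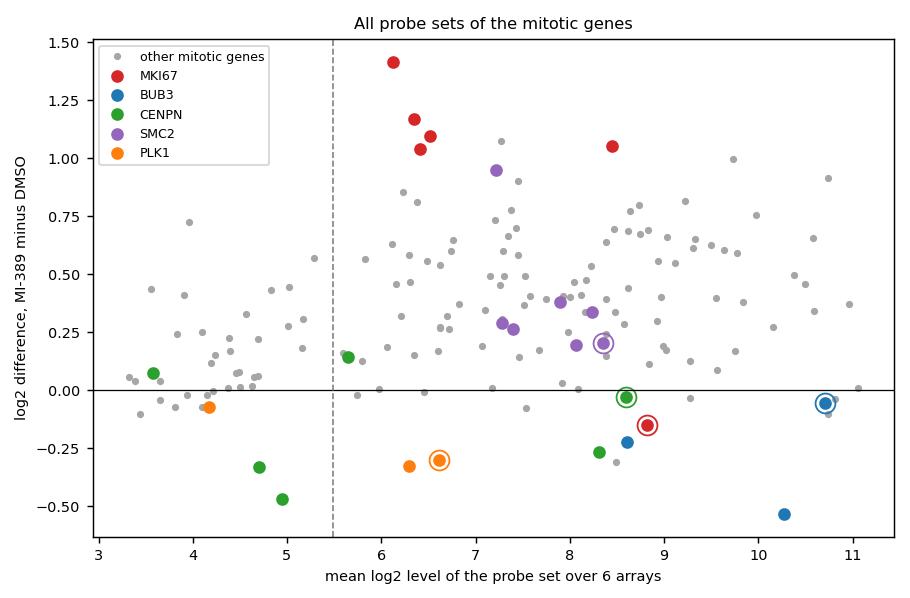
Difference in log2 level, MI-389 minus DMSO (y axis), against mean log2 level over 6 arrays (x axis) for the 162 probe sets of the mitotic genes, with MKI67, BUB3, CENPN, SMC2 and PLK1 in colour, rings on the probe set that represents each of these and a dashed line at the background guide of 5.49. Of these, 100 rose and 7 fell as deposited, and the 5 probe sets of MKI67 that rose by 1.04 to 1.41 stand apart from its brightest one at -0.15, while spike-in centring would lower every point by 0.25.

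The same classes were followed beyond the 60 genes with lists of further genes, chosen with earlier results of these data known. The deposited counts of each list below stand beside 18.4% rising and 15.7% falling among all genes. Among genes that were not dim in their mean, the deposited shares were 30.4% rising and 27.4% falling. Counts of the lists on the spike-in scale stand beside 7.66% rising and 60.6% falling among all genes on that scale. Among 21 other mitotic kinases and regulators 14 rose and 1 fell (median 0.37), and 6 rose and 6 fell on the spike-in scale. CCNA1, the cyclin A of the germ line and of some leukaemias, rose by 2.24 from 6.68 to 8.92, TRIP13, the ATPase that remodels MAD2, by 0.69 and GTSE1 by 0.61, and ARPP19, whose protein inhibits the phosphatase PP2A, fell by 0.38. Spindle and centrosome genes rose in 22 of 34 cases with none falling (median 0.29), against 12 rising and 9 falling on the spike-in scale. PSRC1 rose by 1.14 from 6.56 to 7.70, the augmin subunit HAUS5 by 0.71 and SPAG5, or astrin, by 0.67. Of 13 other cytokinesis genes 8 rose and 2 fell, with 5 and 4 on the spike-in scale. CEP55, which brings the abscission machinery to the midbody, rose by 0.75 and CIT, or citron kinase, by 0.72. CDCA3 rose by 0.72 on its brightest probe set but stood at -0.025 (adjusted p = 0.785) with probe sets of unspecific suffixes taken last. TSG101 fell by 0.59 and RHOA by 0.21, and RHOA missed the threshold without DMSO replicate 1 or 2 or MI-389 replicate 1 (-0.20 to -0.18).

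Other kinetochore and centromere genes were mixed, with 19 of 35 rising and 6 falling, a median of 0.17, and 7 rising and 13 falling on the spike-in scale. DSN1, a subunit of the MIS12 complex, rose by 0.94 from 8.58 to 9.52, SGO2, which protects centromeric cohesin, by 0.77 and CENPM by 0.68. CENPH fell by 0.34, MAD1L1, the anchor of MAD2, by 0.33 and SKA2 by 0.31. Cohesin and the other condensin genes showed no common direction, with 5 of 16 rising, 4 falling and a median of -0.051. NCAPG2 of condensin II rose by 0.88 and ESCO2, the cohesin acetyltransferase of S phase, by 0.74, PDS5B by 0.35, and the cohesin loader NIPBL fell by 0.49, STAG1 by 0.33 and NCAPH2 by 0.29. As means of all probe sets NIPBL stood at -0.093 and NCAPH2 at -0.076, PDS5B stood at 0.16 with unspecific suffixes last, and none of these passed. STAG1 missed the threshold without DMSO replicate 2 or 3 or MI-389 replicate 3 (-0.33 to -0.23). On the spike-in scale 2 of these 16 rose and 9 fell. Of the anaphase-promoting complex and its partners, 5 of 17 rose and 3 fell, with a median of 0.039, and 0 rose and 10 fell on the spike-in scale. As deposited, 29.4% of them thus rose, near the 30.4% of genes not dim in their mean, and 17.6% fell, against 27.4%. CDC26 rose by 0.36, while ANAPC16 fell by 0.63 and ANAPC10 by 0.63. CDC27 rose by 0.33 but stood at -0.11 with unspecific suffixes last, and CDC23 rose by 0.24 but stood at -0.069 as the mean of its probe sets, neither passing then. UBE2S fell by 0.17 and missed the threshold without any array other than MI-389 replicate 1 (-0.18 to -0.13).

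Of 24 genes for kinesins and kinesin subunits with roles outside mitosis, 6 rose and 3 fell, with a median of 0.0026 beside 0.018 for all genes, and 15 of them were dim. The list includes the light chains KLC1 and KLC2 and the adaptor KIFAP3, and shares KIF13A with the cytokinesis list. KIF17, a motor of cilia and dendrites, rose by 0.92 from 5.68 to 6.60, and KIF21B, a motor of neurons and lymphocytes, fell by 1.17 from 8.68 to 7.51. KIF26B (0.77), KIF3C (0.46) and KIF26A (-0.28) passed the test but were dim in both groups, KIF26B and KIF3C did not pass with unspecific suffixes last (0.061 and 0.099), and KIF13B fell by at least 1.07-fold, from 5.58 to below the guide of 5.49. On the spike-in scale 2 of the 24 rose and 14 fell. Of the 6 other kinesins with a role in mitosis, KIFC1, a motor that focuses spindle poles, rose by 0.50 and KIF3B by 0.23, and KIF24 passed at 0.34 while dim, with 1 rising and 2 falling on the spike-in scale.

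DNA replication precedes mitosis, and its genes were listed too. Of 42 S phase genes 31 rose and 3 fell, with a median of 0.34, and 19 rose and 9 fell on the spike-in scale. GINS1 and GINS3, subunits of the replicative helicase, rose by 1.14 and 1.04, and POLE2, a subunit of DNA polymerase epsilon, rose by 1.07. The primase subunit PRIM1 fell by 0.63, the licensing factor CDT1 by 0.60 and SLBP, which binds histone mRNA, by 0.23. Among 23 genes of the DREAM complex, the E2F family and their regulators, 9 rose and 6 fell with a median of -0.059, and 3 rose and 14 fell on the spike-in scale. MYBL1, or A-MYB, rose by at least 1.43-fold, from a dim 4.33 to 6.01, E2F8 rose by 0.74 and E2F2 by 0.57, though E2F2 stood at -0.078 without passing when unspecific suffixes were taken last. CDKN1A, which encodes the CDK inhibitor p21, fell by 1.77 from 8.65 to 6.88, and CDKN1B, which encodes p27, fell by 0.74 from 10.15 to 9.42. E2F5 passed at -0.52 while dim in both groups.

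**Figure D5:**
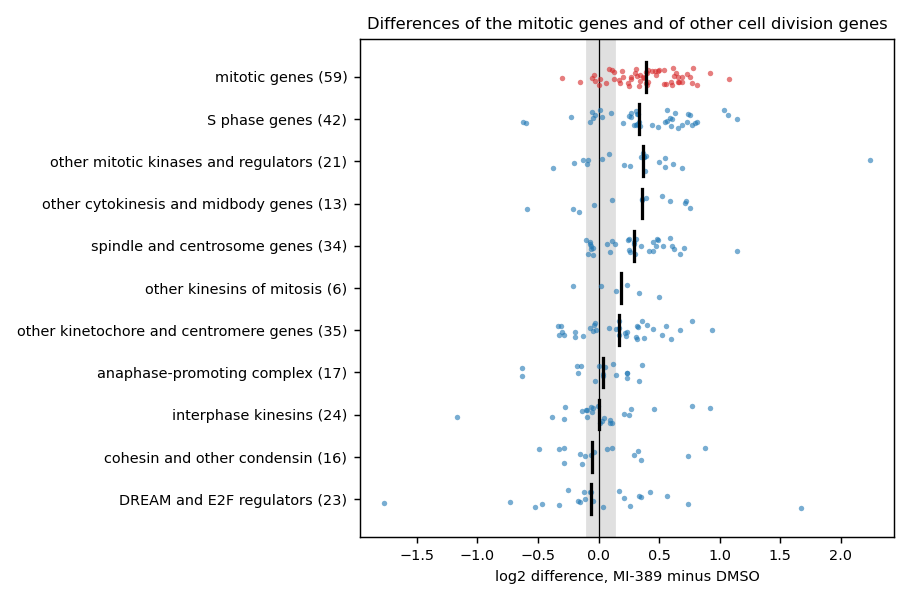
Difference in log2 level, MI-389 minus DMSO (x axis), of every measured gene in the mitotic set and in 10 related lists (y axis, number of genes in brackets), with the median of each list as a black tick and the interquartile range of all 18239 genes, -0.10 to 0.14, as a grey band. The medians run from 0.39 in the mitotic set and 0.37 in other mitotic regulators to 0.0026 in kinesins and kinesin subunits outside mitosis, -0.051 in cohesin and other condensin genes and -0.059 in DREAM and E2F regulators, and centring on the spike-ins would lower all of them by 0.25.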

How the data were processed

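Total RNA of 6 MV4;11 cultures, 3 per group by their treatment label, was measured on Affymetrix arrays. The deposited values are log2 probe set summaries. RMA and limma are named in the submitters' processing notes; their versions, the background correction and which arrays were normalised jointly were not given in the sources used here. RMA compresses dim values, so folds of dim probe sets are understated. Arrays have no sequencing depth, and their number limits the precision.

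Of 49386 probe sets, 93 controls were set aside. Genes were named by the platform annotation and symbols brought up to date by Entrez ID (RefSeq, GRCh38.p14); 45253 probe sets had 1 gene, 1327 several and 2713 none. A gene was represented by its brightest probe set over all arrays among those annotated to it alone. MI-389 was compared with DMSO by lmFit and eBayes of limma (version 3.58.1, under R 4.3.3; two-sided, without covariates) and Benjamini-Hochberg adjustment over 18239 genes or 49293 probe sets and a threshold of 0.05. Tables and plots used Python 3.11.15, pandas 2.3.3 and matplotlib 3.10.9. The fit was tested on simulated data. No set test was run.

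The genes, classes and lists were chosen with earlier results of these data known. Named are all 60 genes and, per list, up to 3 rising and 3 falling genes with the largest changes. Among the marker lists, 3 genes that passed while dim in both groups are named only here. These are CD3D (0.32), CD79A (-0.27) and COL1A1 (-0.31). Some list genes without a probe set of their own were not analysed here. Bounds of the form "at least" set the brighter group's mean against the background guide. Alternatives were 3 scalings (a common median, further quantile normalisation, centring on the 9 spike-in probe sets), dropping genes whose mean was below the 40th percentile, the replicate number as a block, trended robust variances, array weights, each array left out, the mean of all probe sets, probe sets with suffixes _x_at, _s_at and _a_at taken last, treat against a fold of 1.2, and an adjusted p of 0.01.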

Additional observations from a re-analysis of the deposited data

Results flagged for a closer look

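The hybridisation spike-ins, which take no part in the gene comparison, differed between the groups. The mean of their 9 probe sets was 8.99, 9.08 and 9.07 on the DMSO arrays and 9.36, 9.27 and 9.26 on the MI-389 arrays, a difference of 0.25 (log2, SE 0.043). Of the 46 mitotic genes that rose, 25 did so after centring on them and 21 did not pass. PLK1 still fell, and AURKA, BUB3, CENPN, INCENP, MKI67, NDC80 and SMC4 joined it on the probe sets that represent them. Among all genes on that scale 7.66% rose and 60.6% fell. The other 5 probe sets of MKI67 rose by 1.04 to 1.41 as deposited, more than the shift of 0.25. INCENP was dim in both groups, and its other probe set, also dim, rose by 0.73. The cause was not tested.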

How the results depend on the processing

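Centring on the spike-ins gave 12453 called genes (1397 higher, 11056 lower), 25 mitotic genes higher and 8 lower, and a median of 0.14 over the 59 genes. By class it gave 0.15 for kinases and cyclins, 0.35 for anaphase proteolysis, 0.14 for kinetochores, -0.049 for condensin, 0.062 for kinesins, 0.43 for the spindle, 0.046 for passenger and cytokinesis genes and 0.30 for transcription factors. It turned CCNB1 (-0.078), KIF23 (-0.0095), NDC80 (-0.25), NUF2 (-0.0015), INCENP (-0.19), CDCA8 (-0.062), SMC2 (-0.049), SMC4 (-0.24), CDC23 (-0.014) and KIF3B (-0.022). A common median gave 0.35 over all 59 genes, 0.36 for kinases, 0.35 for kinetochores and 0.16 for condensin, with 2 genes lower. Quantile normalisation gave 0.37 over all 59 genes, 0.23 for condensin and 0.25 for passenger and cytokinesis genes. The mean of all probe sets gave 3 genes lower, PLK1 (-0.23), BUB3 (-0.27) and CENPN (-0.15). Its medians were 0.32 over all 59 genes, 0.28 for kinases, 0.35 for anaphase proteolysis, 0.34 for kinetochores, 0.37 for condensin, 0.56 for the spindle and 0.40 for transcription factors, and it turned MKI67 (0.94) and CDC23 (-0.069). Taking unspecific suffixes last gave 0.37 over all 59 genes, 0.35 for kinases, 0.37 for anaphase proteolysis and 0.25 for passenger and cytokinesis genes. It turned MAD2L1 (-0.10), NCAPH (-0.0037), E2F2 (-0.078), CDC27 (-0.11) and CDCA3 (-0.025), and CDK1, CDC20 and TACC3 no longer passed, at 0.057, 0.15 and 0.12. The probe sets it reads for CDK1, CDC20, TACC3, MAD2L1 and NCAPH were dim. A threshold of 0.01 left 40 mitotic genes higher and 0 lower, and treat left 23 and 0, with 2457 genes in all (1282 higher, 1175 lower). Counts over all genes at 0.01, with a common median, with quantile normalisation and with the other choices of probe set are not given here. The mitotic counts under those settings are therefore not set beside other genes. Leaving out each array gave 5216 to 6160 genes (2790 to 3328 higher, 2426 to 2832 lower), 40 to 45 mitotic genes higher and 0 to 1 lower. The medians then ranged from 0.35 to 0.40 over all 59 genes, 0.33 to 0.41 for kinases, 0.57 to 0.63 for anaphase proteolysis, 0.34 to 0.44 for kinetochores, 0.19 to 0.23 for condensin, 0.27 to 0.35 for kinesins, 0.62 to 0.70 for the spindle, 0.27 to 0.31 for passenger and cytokinesis genes and 0.51 to 0.60 for transcription factors. In the 14 alternatives other than the spike-ins and the stricter thresholds, 36 of the 46 genes rose throughout, and the exceptions were CCNB1, CDK1, CDC20, MAD2L1, KIF23, KIF18A, CDCA8, SMC2, NCAPH and TACC3. The same count over all genes is not given here. The cause of these changes was not tested.

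Replicate numbers did not pair the arrays (r = -0.20, 0.018 and -0.14 between deviations of equal numbers), and with the replicate block 5725 genes were called, 43 mitotic genes higher and 1 lower. CCNB1 (adjusted p = 0.0908), KIF23 (0.0553) and CDCA8 (0.0747) then missed the threshold.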
